A study of Homo sapiens with 12 samples.

Results

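The iron uptake, storage and iron regulatory protein genes measured here are 10 transcripts, TFRC, STEAP3, SLC11A2, FTH1, FTL, NCOA4, SLC40A1, ACO1, IREB2 and FBXL5. They were chosen by gene symbol from a table of 60987 rows, and each symbol matched 1 row. The cells were HCT116, an established line from a human colorectal carcinoma with a wild-type (WT) label, and their RNA was measured by sequencing. The 4 groups of 3 samples were cells in DMEM with 0 mM cystine for 24 h, cells in full DMEM for 24 h, cells in DMEM with 0 mM cystine for 48 h and cells in full DMEM for 48 h. Each medium held 10% fetal bovine serum and antibiotics. Cystine is the oxidised dimer of cysteine, and the question addressed is how transcript levels differ once it is withheld. A wash and a change to fresh medium are described for the deprived cells but not for the controls, so the deprivation comparisons may include that step.

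Cells take up iron bound to transferrin through the transferrin receptor, reduce it in the endosome, move it to the cytosol and keep what is not used inside ferritin, a shell of heavy and light chains. A pair of iron regulatory proteins, encoded by ACO1 and IREB2, bind hairpins called iron-responsive elements when iron is low. Binding in the 5′ untranslated region blocks translation of ferritin and ferroportin transcripts, and binding in the 3′ untranslated region stabilises the transferrin receptor transcript. The ACO1 protein loses RNA binding when it carries an iron-sulfur cluster, whose sulfur comes from cysteine, and works as an aconitase instead. The ferritin genes are also known targets of the antioxidant regulator NRF2. Free iron promotes the lipid peroxidation of ferroptosis, a form of cell death that cystine withdrawal is known to provoke in many cultured cells.

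The sequences through which this control acts are shown because they set the transcripts apart by the end at which the hairpin lies. GENCODE release 29 transcripts (GRCh38) were searched on the sense strand for a bulged C, 5 bases, the loop CAGTGN and 5 bases pairing with the first 5, with at least 3 Watson-Crick pairs. These letters occurred in 244 of 19684 protein-coding genes (1.24%) and in 4 of the 10 genes. Each window holds 30 bases, 5′ to 3′, with the bulged C and the 6-base loop in capitals.
FTH1: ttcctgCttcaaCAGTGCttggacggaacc
FTL: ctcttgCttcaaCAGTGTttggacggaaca
SLC40A1: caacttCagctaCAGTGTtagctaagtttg
TFRC element 1: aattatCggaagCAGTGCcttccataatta
TFRC element 2: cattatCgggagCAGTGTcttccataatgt
TFRC element 3: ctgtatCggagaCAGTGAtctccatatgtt
TFRC element 4: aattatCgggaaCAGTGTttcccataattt
The FTH1 and FTL windows were identical at 26 of 30 bases, differing by T1C, C4T, C18T and C30A, counted from the first printed base with the FTH1 base first. The FTH1 window lies at chr11:61967573-61967602 on the minus strand, and the FTL window at chr19:48965335-48965364 on the plus strand. The SLC40A1 window lies at chr2:189580660-189580689 on the minus strand, in 1 of 5 coding transcripts of the gene. All 3 are in the 5′ untranslated region, with the bulged C 77, 167 and 223 bases before the coding region. The TFRC windows are in the 3′ untranslated region on the minus strand of chromosome 3, element 1 at chr3:196050978-196051007 and the others between 196050462 and 196050603. No match was found in SLC11A2, NCOA4, IREB2, ACO1, STEAP3 or FBXL5, which says only that these letters are not there: looser hairpins, such as the one described in some SLC11A2 isoforms, are outside the search. The TFRC element numbers likewise count matches to these letters only, and a looser hairpin in TFRC would be missed.

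**Figure D1:**
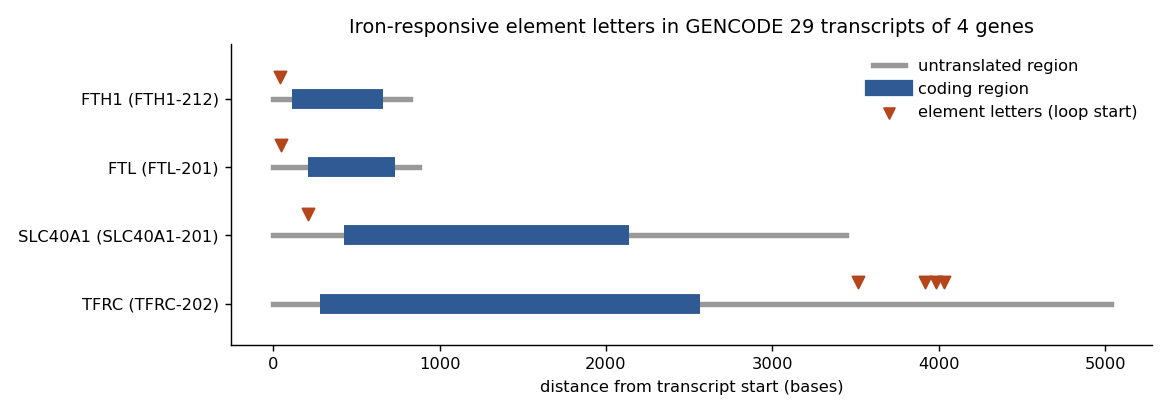
Map of 1 GENCODE transcript for each of FTH1, FTL, SLC40A1 and TFRC, with distance from the transcript start in bases on the x axis; thin grey lines are untranslated regions, blue bars coding regions and red triangles the starts of matched loops. A single match precedes the coding region in FTH1, FTL and SLC40A1, and 4 matches follow it in TFRC.

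Total estimated counts per sample lay between 19146108 and 24179533, and 16994 genes, including all 10 described here, had enough counts to be tested. SLC40A1 passed that filter through its control samples. Levels are given as CPM, counts scaled to a common library size with TMM factors. The 6 colon epithelial markers EPCAM, CDH1, KRT8, KRT18, KRT19 and VIL1 summed to 5070 to 5200 CPM in deprived and 3670 to 4070 CPM in control cells at 24 h, and to 4720 to 5250 CPM in deprived and 3970 to 4380 CPM in control cells at 48 h, although VIL1 reached only 2 CPM. The leukocyte markers PTPRC and CD3E and the erythroid marker HBB were at 0 in every sample, and the 4 leukocyte markers summed to at most 0.551 CPM. Of the 3 erythroid markers 1 reached 1 CPM. Their sum at 24 h was 0 to 0.173 CPM in deprived and 0.513 to 0.564 CPM in control cells. At 48 h that sum was 0 to 0.0911 CPM in deprived and 0 to 1.42 CPM in control cells. Of the 4 fibroblast markers 1 reached 1 CPM, and their sum was 15.9 to 20.2 CPM in deprived and 31.6 to 33.6 CPM in control cells at 24 h, and 20.1 to 22.4 CPM in deprived and 44 to 48.8 CPM in control cells at 48 h. The 3 endothelial markers summed to at most 2 CPM, and the part of these lists in the results was not tested. Nothing in the labels tells whether replicates were grown separately, and p-values may therefore rest on technical spread alone. In bulk RNA, fewer cells expressing a gene and less RNA per cell cannot be told apart.

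Without cystine, ferritin transcripts rose severalfold, the transferrin receptor rose, and of the iron regulatory protein transcripts ACO1 fell while IREB2 did not pass the test. The exporter ferroportin (SLC40A1) was lower, but from few counts in every group. By edgeR's quasi-likelihood test, with Benjamini-Hochberg adjustment over all genes and a threshold of 0.05, 5 of the 10 rose and 4 fell at 24 h, when 28.8% of all genes tested rose and 26.9% fell. At 48 h the same split of 5 rises and 4 falls was found, when 33.5% of all genes rose and 34.9% fell. The shares of genes called at all were thus 55.6% and 68.3%, so that most genes were called in these data and the sizes are what the following describes. Likewise, deprived and control samples did not overlap for 62.8% of all genes at 24 h and 70% at 48 h, so that groups apart from each other are common here. SLC40A1, counted among the falls and in the median that follows, entered the test through its controls. Nothing is read from its place in these counts or in that median. The median log2 fold change of the 10 was 0.07 at 24 h and 0.22 at 48 h, against -0.0061 and -0.016 over all genes tested.

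**Figure D2:**
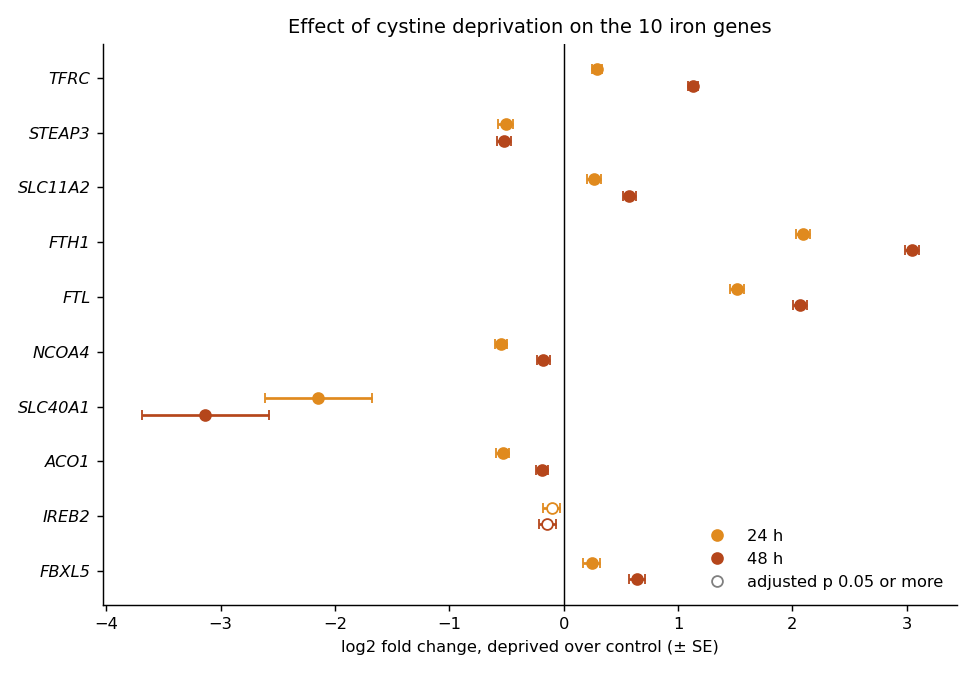
Log2 fold change of deprived over control cells on the x axis for the 10 genes, at 24 h (orange) and 48 h (red); bars are standard errors and open circles did not pass the threshold. FTH1 (3.04 at 48 h) and SLC40A1 (-3.13 at 48 h, from few counts) lie at the 2 ends. IREB2 is the gene with open circles at both times.

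Iron uptake began with TFRC, the receptor for iron-loaded transferrin (chromosome 3, 196027183 to 196082189). TFRC stood at 540.5, 527 and 540.1 CPM in the 3 deprived samples at 24 h, against 429.2, 446.4 and 436.6 CPM in the controls. At 48 h it stood at 513.7, 529.4 and 531.8 CPM in deprived cells, against 249.9, 239.5 and 230.2 CPM in controls. Every deprived sample was above every control of its time, and the 48 h controls were the lowest of the 4 groups. TFRC rose 1.23-fold at 24 h (log2 0.29 ± 0.045 SE, adjusted p = 1.84e-05) and 2.19-fold at 48 h (1.13 ± 0.046, adjusted p = 6.69e-14). The larger ratio at 48 h stood on lower control values. In control cells TFRC fell by 0.87 ± 0.046 on the log2 scale at 48 h relative to 24 h (adjusted p = 3.46e-10), while in deprived cells the 48 h samples differed from the 24 h samples by -0.030 ± 0.045 (adjusted p = 0.634).

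STEAP3, the endosomal ferrireductase that prepares transferrin iron for export from the endosome (chromosome 2, 119223831 to 119265652), went the other way. It stood at 53.7, 59.4 and 59 CPM in deprived samples at 24 h, against 78.9, 82.7 and 83.3 CPM in controls. The 48 h values were 60.2, 60.1 and 62.6 CPM in deprived samples, against 87.8, 95.4 and 79.6 CPM in controls. The groups did not overlap at either time. STEAP3 fell by 0.51 ± 0.064 (log2, SE) at 24 h (adjusted p = 1.85e-06) and by 0.52 ± 0.064 at 48 h (adjusted p = 5.65e-07). SLC11A2, or DMT1, which carries the reduced iron across the endosomal membrane (chromosome 12, 50979401 to 51028566), rose. Its level was 56.2, 55.6 and 49.6 CPM in deprived samples at 24 h, against 43.1, 45.4 and 45.6 CPM in controls. Deprived samples at 48 h had 73.9, 75.9 and 70.4 CPM, against 50.2, 49.7 and 47.9 CPM in controls. Each deprived sample was above the controls of its time, and the 48 h deprived samples were the highest of all. The rise was 1.2-fold at 24 h (adjusted p = 0.000923) and 1.49-fold at 48 h (adjusted p = 4.84e-08). Gene counts join its isoforms with and without a described iron-responsive element, so these cannot be told apart here.

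Ferritin transcripts showed the largest rises of the set. FTH1, the heavy chain, which oxidises iron as it enters the shell (chromosome 11, 61959718 to 61967660), stood at 6682, 6787 and 6911 CPM in deprived samples at 24 h, against 1514, 1569 and 1691 CPM in controls. At 48 h it stood at 11460, 12810 and 12750 CPM in deprived samples, against 1387, 1535 and 1570 CPM in controls. The lowest deprived sample at each time was several times the highest control. FTH1 rose 4.27-fold at 24 h (log2 2.09 ± 0.059 SE, adjusted p = 1.41e-15) and 8.24-fold at 48 h (3.04 ± 0.061, adjusted p = 3.06e-18). Its share of all counts on named genes was 0.656% to 0.674% in deprived and 0.158% to 0.172% in control cells at 24 h, and 1.16% to 1.24% in deprived and 0.141% to 0.157% in control cells at 48 h. Ranked by CPM per kilobase of the deposited gene length, FTH1 was number 4 of 16994 genes in deprived and number 28 in control cells at 24 h, and number 1 in deprived and number 37 in control cells at 48 h.

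FTL, the light chain, which helps the iron core form (chromosome 19, 48965301 to 48966878), rose less. It stood at 2007, 1945 and 2023 CPM in deprived samples at 24 h, against 655.1, 710 and 726 CPM in controls, a 2.86-fold rise (log2 1.51 ± 0.061 SE, adjusted p = 2.17e-13). At 48 h it stood at 2836, 3191 and 3164 CPM in deprived samples, against 669, 769.7 and 752.6 CPM in controls, a 4.19-fold rise (2.07 ± 0.062, adjusted p = 7.18e-16). Deprived and control samples were far apart at both times, and in the 2 control groups neither chain differed between times beyond the threshold (adjusted p = 0.291 for FTH1 and 0.458 for FTL).

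The heavy to light balance shifted with deprivation. Per base of gene length, FTH1 over FTL was 3.6 ± 0.0839 in deprived and 2.41 ± 0.0681 in control cells at 24 h, and 4.25 ± 0.0147 in deprived and 2.17 ± 0.0521 in control cells at 48 h (SD, n = 3 each). Deprived samples were above controls in all 3 against 3 at each time, a 1.49-fold difference at 24 h and a 1.96-fold difference at 48 h. The exact two-sided permutation p was 0.1 at each time, which is the smallest that 3 against 3 allows. This ratio does not depend on how libraries are scaled. Against TFRC, FTH1 per base of length was 75.4 to 78.6 times as high in deprived and 21.4 to 23.6 times as high in control cells at 24 h, and 136.1 to 147.5 times as high in deprived and 33.9 to 41.6 times as high in control cells at 48 h.

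Near-identical pseudogenes can share ferritin reads, and estimated counts may divide such reads between them. The 24 rows named as FTH1 pseudogenes summed to at most 71.3 counts in a sample and to at most 0.0662% of the FTH1 count, and the 16 named for FTL to at most 6 counts. BEST1 overlaps FTH1 on the other strand, and its count lay between 12.6 and 249, against 30563 to 279914 for FTH1. BEST1 also rose, by 3.37 on the log2 scale at 24 h (adjusted p = 5.79e-11) and 2.5 at 48 h (adjusted p = 6.87e-10), while the FTH1 rise was larger at 48 h. Whether counting used strand is not stated, and without strand, reads from the overlap of FTH1 and BEST1 cannot be told apart.

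**Figure D3:**
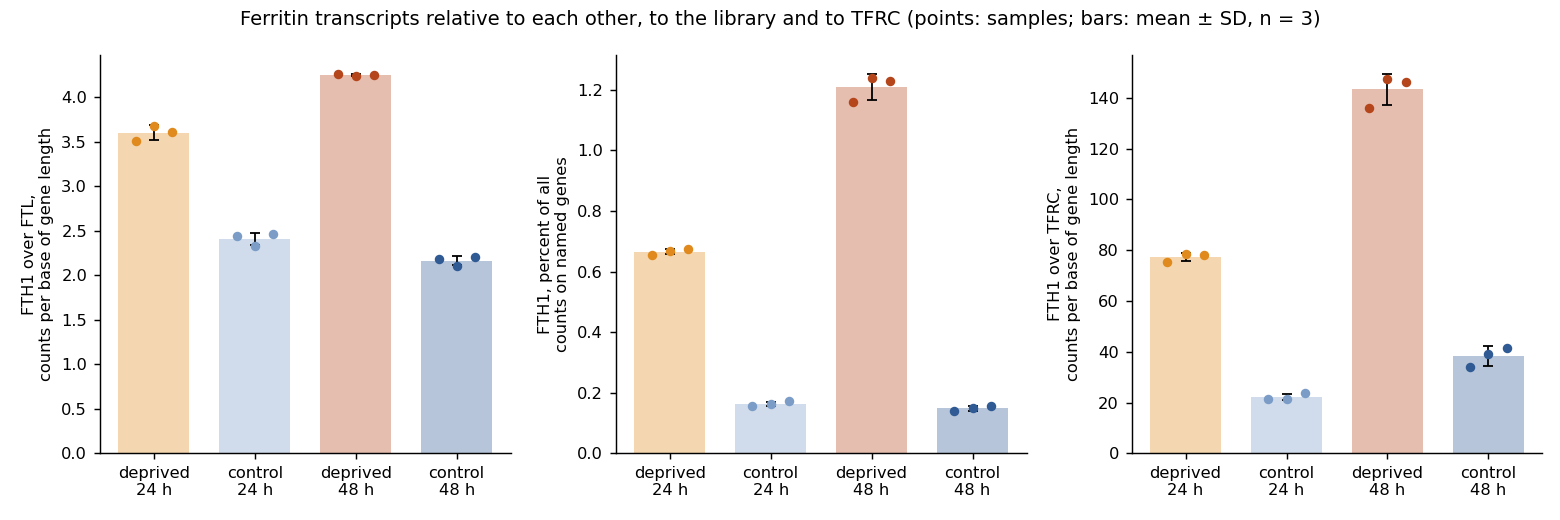
Per-sample values (points) with mean and SD (bars, n = 3) for deprived and control cells at 24 h and 48 h. The y axes are FTH1 over FTL per base of gene length, FTH1 as percent of counts on named genes, and FTH1 over TFRC per base of gene length; in each panel the deprived samples sit above the controls of their time, with ratios of 4.25 and 2.17 at 48 h in the first panel.

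Ferritin is delivered to the lysosome for iron release by NCOA4 (chromosome 10, 46005088 to 46030714), the receptor of ferritinophagy. NCOA4 stood at 121.2, 115.9 and 119.2 CPM in deprived samples at 24 h, against 176.5, 178 and 166.2 CPM in controls. The 48 h values were 130.2, 148.1 and 148.5 CPM in deprived samples, against 159.4, 159.1 and 164.5 CPM in controls. The groups did not overlap at either time, but came closer at 48 h. NCOA4 fell by 0.55 ± 0.055 (log2, SE) at 24 h (adjusted p = 9.44e-08) and by 0.18 ± 0.055 at 48 h (adjusted p = 0.00737). Without deprived 48 h replicate 1, the lowest of its group, the value at 48 h was -0.11 and no longer passed (adjusted p = 0.0527).

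SLC40A1, or ferroportin, the iron exporter of the cell surface (chromosome 2, 189560579 to 189583758), was the least abundant of the 10. Its estimated counts were 11, 4 and 11 in deprived samples at 24 h, against 38, 33 and 34 in controls. At 48 h they were 5, 0 and 5 in deprived samples, against 36, 21 and 35 in controls. Each deprived sample was under each control, in a range where single reads matter, and the sample at 0 allows a level of up to 3 counts, or 0.139 CPM. From summed counts of 26 in deprived and 105 in control cells, the ratio at 24 h was 0.222, with a 95% interval of 0.139 to 0.344. At 48 h, 10 counts in deprived and 92 in control cells gave 0.11, with an interval of 0.0511 to 0.212. These intervals cover counting error only. The fitted log2 fold change was -2.15 ± 0.47 SE at 24 h (adjusted p = 0.000732) and -3.13 ± 0.55 at 48 h (adjusted p = 5.41e-05), where the size depends on the prior count. It was kept by the filter through its controls, and with no filter on low counts it passed at both times as well.

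An element match before the coding region was found in 7 of 8 coding transcripts of FTH1, the 1 of FTL and 1 of 5 of SLC40A1. FTH1 and FTL rose, and SLC40A1 was lower at few counts. Gene counts do not tell which SLC40A1 transcript was counted, so no contrast between the 3 genes is drawn from the element. The elements act on translation in this place, and protein was not measured.

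Among the regulators, ACO1, the protein that switches between aconitase and iron regulatory protein 1 (chromosome 9, 32384603 to 32454769), fell. It stood at 54.5, 53.5 and 58.8 CPM in deprived samples at 24 h, against 82.1, 80.9 and 78.9 CPM in controls. The 48 h values were 58.6, 63.2 and 61 CPM in deprived samples, against 68.9, 70.7 and 68.9 CPM in controls. Deprived samples were lower without overlap at both times. The fall was 0.53 ± 0.054 (log2, SE) at 24 h (adjusted p = 8.83e-08) and 0.19 ± 0.053 at 48 h (adjusted p = 0.00395). The control cells themselves had less ACO1 at 48 h than at 24 h (log2 fold change -0.21 ± 0.053, adjusted p = 0.00633).

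IREB2, or iron regulatory protein 2, which is controlled mainly by protein breakdown (chromosome 15, 78437431 to 78501456), did not pass the threshold. It stood at 83.5, 82.9 and 80.3 CPM in deprived samples at 24 h, against 91.5, 88.4 and 85.2 CPM in controls, a log2 difference of -0.10 ± 0.073 (adjusted p = 0.242). At 48 h it stood at 81.3, 65.3 and 67.5 CPM in deprived samples, against 85.2, 72.8 and 78.2 CPM in controls, a difference of -0.14 ± 0.074 (adjusted p = 0.0957). The groups overlapped at 48 h, where deprived replicate 1 was well above the other two. Without that sample the difference was -0.24 and passed (adjusted p = 0.00272), and it passed without control 48 h replicate 2 as well, at -0.19 (adjusted p = 0.0401). It also passed at 48 h under upper-quartile scaling (-0.20, adjusted p = 0.0297), among genes averaging 5 CPM or more (-0.18, adjusted p = 0.0436) and with a replicate block (-0.14, adjusted p = 0.0369), and at 24 h with only the compared groups fitted (-0.11, adjusted p = 0.0478).

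FBXL5, the iron-sensing subunit of the ubiquitin ligase that marks IREB2 protein for breakdown (chromosome 4, 15604539 to 15681679), rose. Its level was 36.4, 33.3 and 33.9 CPM in deprived samples at 24 h, against 29, 31.6 and 26.8 CPM in controls. Deprived samples at 48 h had 46.6, 48 and 43.4 CPM, against 30.5, 28.9 and 28.9 CPM in controls. The groups did not overlap at either time, and were farther apart at 48 h. The rise was 1.18-fold at 24 h (adjusted p = 0.00664) and 1.56-fold at 48 h (adjusted p = 9.81e-08). At 24 h it did not pass under upper-quartile scaling (log2 0.17, adjusted p = 0.0523) or with library totals alone (0.17, adjusted p = 0.0646). FAM200B overlaps FBXL5 on the other strand with 271 to 349 counts per sample and did not change beyond the threshold at 48 h (log2 0.055, adjusted p = 0.639).

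**Figure D4:**
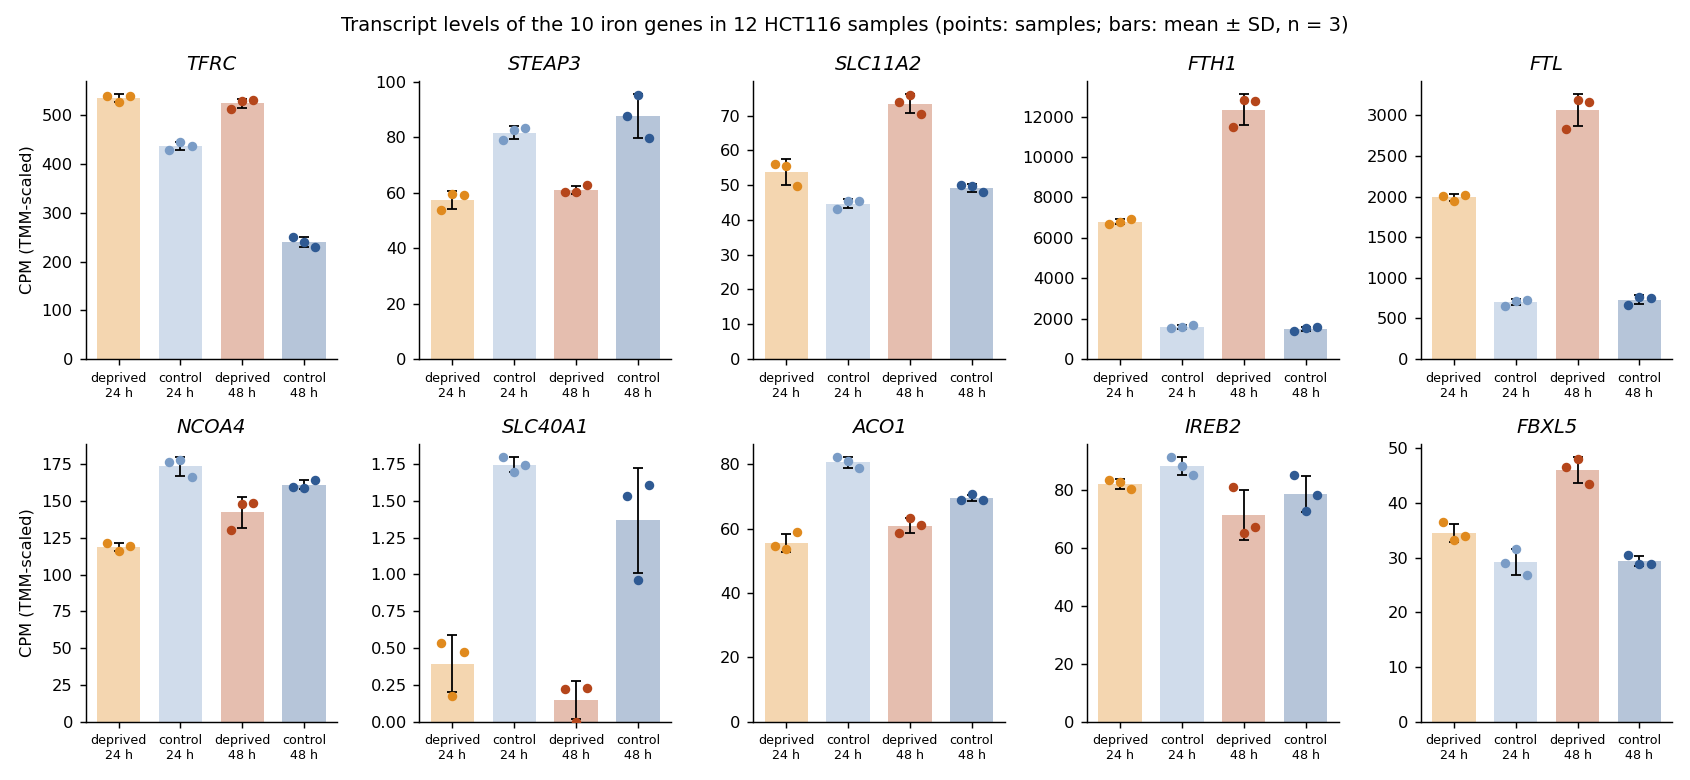
CPM on the y axis for each of the 10 genes in separate panels, with deprived and control cells at 24 h and 48 h on the x axis; points are samples, bars the mean and error bars the SD (n = 3). FTH1 at 48 h ranges from 11460 to 12810 CPM in deprived and from 1387 to 1570 CPM in control samples, while IREB2 samples of the 2 media overlap at 48 h.

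Whether the effect itself differed between the times was tested with the difference of the 2 log2 fold changes, 48 h minus 24 h. It was positive and passed in 7 of the 10 genes and negative in 0, when 16.4% of all genes tested passed upward and 19.2% downward (35.6% in either direction). It was 0.95 ± 0.08 for FTH1 (adjusted p = 2.83e-08), 0.84 ± 0.064 for TFRC (adjusted p = 6.4e-09) and 0.55 ± 0.084 for FTL (adjusted p = 4.3e-05). For these, SLC11A2 (0.31 ± 0.084) and FBXL5 (0.40 ± 0.099) the rise was larger at 48 h. For NCOA4 (0.37 ± 0.078, adjusted p = 0.00105) and ACO1 (0.34 ± 0.076, adjusted p = 0.00151) a positive difference means that the fall was smaller at 48 h. It did not pass for STEAP3 (-0.015 ± 0.09, adjusted p = 0.918), IREB2 (-0.038 ± 0.1, adjusted p = 0.815) or SLC40A1 (-0.99 ± 0.76, adjusted p = 0.342), whose low counts leave the widest error. The 2 deprivation comparisons use different samples.

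The same times were also compared within each medium. In deprived cells at 48 h relative to 24 h, FTH1, FTL, SLC11A2, NCOA4 and FBXL5 rose and IREB2 fell, 5 and 1 of the 10, when 20.7% of all genes rose and 21.8% fell (42.5% in either direction). FTH1 rose 1.82-fold (adjusted p = 4.72e-10) and FTL 1.54-fold (adjusted p = 8.99e-08). The IREB2 fall (-0.20 ± 0.074, adjusted p = 0.0326) did not pass without any one of deprived 24 h replicates 1, 2 and 3 or deprived 48 h replicates 2 and 3, with values of -0.22 to -0.14, nor under upper-quartile scaling (adjusted p = 0.0563) or library totals (adjusted p = 0.0756). ACO1 did not pass in deprived cells (0.13 ± 0.054, adjusted p = 0.0597) but did without deprived 24 h replicate 3 (0.18) or deprived 48 h replicate 1 (0.16). ACO1 also passed there with RLE (adjusted p = 0.0391), upper-quartile (0.0361) and total scaling (0.0405), among genes averaging 5 CPM or more (0.0423) and in DESeq2 (0.0465). SLC40A1 passed without deprived 24 h replicate 2 (-1.70, adjusted p = 0.0454). In control cells 0 rose and 2 fell, TFRC and ACO1, when 12.7% of all genes rose and 10.4% fell (23% in either direction). IREB2 did not pass there (-0.17 ± 0.073, adjusted p = 0.114) but did without control 48 h replicate 1 (-0.23) or deprived 48 h replicate 1 (-0.17, adjusted p = 0.037), and with a replicate block (-0.17, adjusted p = 0.0426). These comparisons share samples with the deprivation comparisons. With library totals alone as the scale, 4 of the 10 fell in control cells, FTH1 and NCOA4 in addition, and the split over all genes turned to 1697 higher and 2580 lower, against 2151 and 1760 with TMM.

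Levels of different genes can be compared only per length. In deprived cells at 48 h the order of mean CPM per kilobase was FTH1 (14950 ± 921), FTL (3517 ± 227), TFRC (104 ± 1.96), NCOA4 (61.7 ± 4.53), ACO1 (16.9 ± 0.64), SLC11A2 (16.9 ± 0.63), STEAP3 (14.3 ± 0.334), FBXL5 (13.2 ± 0.68), IREB2 (11.3 ± 1.37) and SLC40A1 (0.0448 ± 0.0388) (SD, n = 3). Here ACO1 and SLC11A2 did not differ by more than the sum of their SDs, and neither did FBXL5 and IREB2. In control cells at 48 h the order was FTH1 (1815 ± 118), FTL (838.6 ± 61.9), NCOA4 (69.8 ± 1.31), TFRC (47.7 ± 1.96), STEAP3 (20.6 ± 1.85), ACO1 (19.3 ± 0.292), IREB2 (12.4 ± 0.983), SLC11A2 (11.3 ± 0.274), FBXL5 (8.43 ± 0.27) and SLC40A1 (0.41 ± 0.106). In that group STEAP3 and ACO1 did not differ by more than the sum of their SDs, nor did IREB2 and SLC11A2. TFRC stood above NCOA4 in deprived cells and below it in control cells at 48 h. At 24 h TFRC was above NCOA4 in both, at 106.5 ± 1.53 and 51.5 ± 1.16 in deprived and 86.9 ± 1.72 and 75.2 ± 2.77 in control cells.

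The wider iron system was followed through 57 other genes in 8 lists, of which 50 could be tested. At 24 h 18 rose and 14 fell, with a median log2 fold change of 0.034, when 28.8% of all genes rose and 26.9% fell. At 48 h 22 rose and 20 fell, with a median of 0.024, when 33.5% of all genes rose and 34.9% fell. The lists that follow are small, and their counts at 48 h are to be read against those 2 shares, or 68.3% called in either direction. The 7 genes left untested included hepcidin (HAMP), ceruloplasmin (CP) and mitochondrial ferritin (FTMT), with at most 5.4 counts in any sample.

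Of 12 genes of iron uptake and ferrireduction, 4 rose and 6 fell at 48 h, against 33.5% and 34.9% of all genes. LCN2, a secreted carrier of iron-binding siderophores, stood at 70.1 ± 2.82 CPM in deprived and 1.08 ± 0.384 CPM in control cells at 48 h (SD, n = 3; log2 6.02 ± 0.16 SE, adjusted p = 8.58e-17). SLC39A14, a transporter of zinc and of iron not bound to transferrin, stood at 332.9 ± 14.2 CPM in deprived and 132 ± 4.44 CPM in control cells (1.33 ± 0.05, adjusted p = 2.43e-14). Of the export and hormone list, 3 of 8 genes could be tested and all 3 fell at 48 h, against 34.9% of all genes, while at 24 h 0 rose and 1 fell. Those named are BMP6, a ligand known in liver to induce hepcidin (0.722 ± 0.147 CPM in deprived and 8.09 ± 0.792 CPM in control cells, log2 -3.47 ± 0.21), and HEPH, a ferroxidase that works beside ferroportin in the gut (log2 -1.49 ± 0.39 at 48 h, with 0.438 CPM in deprived and 1.25 CPM in control cells, and 0.42 ± 0.39 at 24 h, which did not pass). These levels are low, as is that of SLC40A1.

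Of 6 iron chaperone genes, 2 rose and 3 fell at 48 h, when 33.5% of all genes rose and 34.9% fell. The cytosolic glutaredoxin GLRX3 rose (0.72 ± 0.064) and PCBP3, of the family that loads iron into ferritin, fell (-1.77 ± 0.31, at 1.27 CPM in deprived and 4.4 CPM in control cells). TAX1BP1, an autophagy receptor that acts with NCOA4 in ferritin turnover, rose at 48 h (0.71 ± 0.05). HERC2, a ubiquitin ligase that marks NCOA4, rose as well (0.30 ± 0.063). Both tested genes of this list thus went opposite to NCOA4 at 48 h. The NCOA4 fall was small there (-0.18 ± 0.055) and did not pass without deprived 48 h replicate 1. At 24 h TAX1BP1 rose (0.48 ± 0.05) and HERC2 did not pass (-0.087 ± 0.063). Between the times HERC2 moved by -0.33 ± 0.063 in control and 0.058 ± 0.063 in deprived cells. Of 5 genes of mitochondrial iron, 3 rose, among them the importer SLC25A37 (0.24 ± 0.057). Of 5 tested transcripts in which an iron-responsive element has been described, 3 rose and 1 fell, with PFN2, an actin regulator, at 288 ± 11.1 CPM in deprived and 129 ± 4.44 CPM in control cells (1.16 ± 0.051) and the kinase gene CDC42BPA up (0.67 ± 0.059).

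Of 8 genes of the ligase core around FBXL5 and of cytosolic iron-sulfur targeting, 4 rose and 4 fell at 48 h, when 68.3% of all genes were called. SKP1, the adaptor that holds F-box proteins such as FBXL5, fell (-0.57 ± 0.054) while FBXL5 rose. MMS19, a scaffold of iron-sulfur cluster delivery, fell as well (-0.72 ± 0.057). Of 9 genes of receptor and DMT1 trafficking, 4 rose and 2 fell, about the 68.3% called over all genes. They include RAB11A, which recycles the transferrin receptor to the surface, down (-0.83 ± 0.055) and NEDD4L, a ubiquitin ligase of membrane transporters, up (0.85 ± 0.066).

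**Figure D5:**
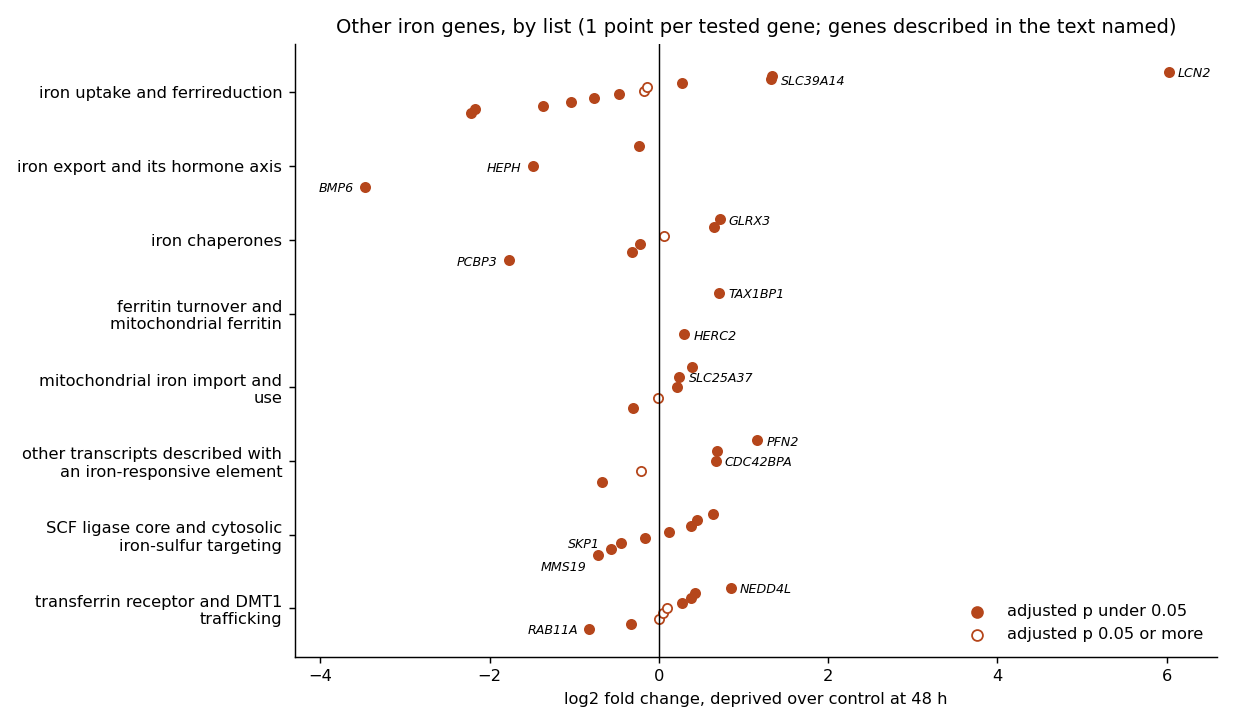
Log2 fold change of deprived over control cells at 48 h on the x axis for the 50 tested genes of 8 lists, 1 point per gene; filled points passed the threshold, and names mark the genes of each list that the text describes. Points lie on both sides of 0 in most lists, with LCN2 at 6.02 and BMP6 at -3.47 as the extremes.

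Likeness of pattern was measured as the root mean square difference between the 4 group means of log2 CPM, each gene centred on its own mean, over 10887 candidate genes averaging 5 CPM or more, annotated, not a pseudogene and with a symbol of capital letters and digits only. The genes nearest to TFRC were INKA2 (0.0791), AMMECR1 (0.0954) and RNF6 (0.0963). Those nearest to FTH1 were EFCC1 (0.105), MIR22HG (0.126) and SLC6A9 (0.131). SLC6A9, a glycine transporter, stood at 54.1 ± 4.11 CPM in deprived and 7.4 ± 0.4 CPM in control cells at 48 h. The distances describe these 12 samples.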

How the data were processed

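The authors deposited expected counts for each gene in every sample, with no normalization (column totals differ between samples), and a gene length. GRCh38, RSEM, HISAT and fastp are listed in the submitters' processing notes, without versions or roles. The annotation release and strandedness are not given in the sources used here. RNA extraction used TRIzol and DNase, per the labels' protocols.

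Of 60987 rows, 316 without a gene name, holding 0.748% to 1.65% of counts, were left out. Counts were rounded, and genes passing filterByExpr (minimum count 10, total 15) were scaled by TMM. All 12 samples entered 1 fit of 4 group means in edgeR 4.0.16 (R 4.3.3), with glmQLFTest for 5 comparisons, Benjamini-Hochberg adjustment and a threshold of 0.05. A standard error is the log2 fold change divided by the root of F. Fits were tested on simulated counts. Replicates differed beyond sampling noise (chi-square per degree of freedom 2.99 to 8.14). Coordinates and transcripts are those of GENCODE 29, matched by gene identifier.

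The 10 genes and the 57 others were chosen with earlier results of these data known. Named were all 10, the 2 of each list with the smallest adjusted p at 48 h, and the 3 nearest patterns to TFRC and FTH1 (pseudocount 0.5 CPM). Some genes under this rule and among the markers are not reported here. Alternatives were RLE, upper-quartile and total scaling, DESeq2 1.42.0, no filter, a mean of at least 5 CPM, a replicate block, only the compared groups, ferritin pseudogene counts added to their parents, and leaving out each sample.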

Additional observations from a re-analysis of the deposited data

Results flagged for a closer look

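The deprivation effect differed between 48 h and 24 h by the interaction test for 7 of the 10 genes, given here as log2 differences of the effects, 48 h minus 24 h. They were 0.95 for FTH1, 0.84 for TFRC, 0.55 for FTL, 0.40 for FBXL5, 0.37 for NCOA4, 0.34 for ACO1 and 0.31 for SLC11A2. For TFRC the control cells moved by -0.87 and the deprived cells by -0.030 between the times, and for FTH1 the control cells moved by -0.088 and the deprived cells by 0.86. Over all genes tested 35.6% had such a difference. Groups of 3 samples were not tested for outlying samples.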

How the results depend on the processing

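The counts of called genes, over the 10 and over all genes, stayed within 1.5 times under each alternative, except in control cells at 48 h against 24 h, where 4 of the 10 passed with library totals alone and 2 with TMM. Over all genes, library totals gave 4086 higher and 5320 lower at 24 h, against 4886 and 4565 with TMM, and 3347 higher and 2847 lower for the difference between times, against 2787 and 3261. The FTH1 over FTL difference was 0.56 to 0.60 (log2) at 24 h and 0.95 to 0.99 at 48 h over the samples left out. Directions turned for differences that were not called: STEAP3 between the times (0.00085 with RLE, 0.036 with library totals, 0.00090 with DESeq2, -0.078 to 0.052 over the samples left out), IREB2 between the times (0.016 with library totals, -0.14 to 0.028 over the samples left out) and FBXL5 in control cells (-0.032 with library totals, -0.042 to 0.075 over the samples left out). Other changes were 19 gene results that came to pass and 10 that no longer did, most of them for IREB2 and ACO1. The main fit did not pair samples by replicate number. Over all genes tested, correlations of same-numbered deprived and control samples of a time were -0.0099 to 0.13. At each time 2 of 3 deprived and 1 of 3 control samples correlated best with their own number. Such correlations cannot exclude an offset that same-numbered samples share for some genes. FTH1 was lowest and IREB2 highest in replicate 1 of each group. The FTH1 standard error at 24 h was 0.041 with the replicate block and 0.059 without it. With the replicate block, 9 of the 10 passed at 24 h, 10 at 48 h (IREB2 at -0.14, adjusted p = 0.0369), 7 for the difference, 6 in deprived and 3 in control cells, and 9631 and 11734 genes passed at 24 h and 48 h. The interaction could not be fitted with only the compared groups, since it uses all 4. SLC40A1 is limited by depth and gives no value at a mean of at least 5 CPM. The cause of these changes was not tested.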

Other observations

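Genes of the wider lists outside the naming rule, chosen after their values were seen, showed the ferrireductases and receptor partners going different ways. STEAP1, a metalloreductase related to STEAP3, stood at 20.1 ± 0.959 CPM in deprived and 7.97 ± 1.4 CPM in control cells at 48 h (SD, n = 3 each; log2 1.33 ± 0.12 SE, adjusted p = 4.92e-09 by edgeR), while STEAP3 fell. CYBRD1, a surface ferrireductase, stood at 22.7 ± 1.29 CPM in deprived and 38.5 ± 2.9 CPM in control cells (-0.76 ± 0.08, adjusted p = 7.75e-08). HFE, which binds the transferrin receptor, stood at 5.76 ± 0.875 CPM in deprived and 14.9 ± 0.474 CPM in control cells (-1.37 ± 0.13, adjusted p = 1.16e-08), while TFRC rose. SLC22A17, described as a receptor for LCN2, fell by 2.21 ± 0.15 on the log2 scale at 48 h (adjusted p = 8.64e-11), with 3.17 ± 0.771 CPM in deprived and 14.8 ± 0.831 CPM in control cells.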
